A study of Mus musculus with 6 samples.

Results

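SNARE proteins sit on vesicles and on the membranes that receive them, and fusion follows when their coiled-coil segments zip into a bundle. A bundle joins an R-SNARE, usually a vesicle-borne VAMP, to Q-SNAREs from a syntaxin and from a protein of the Snap25 family or its single-helix equivalents. In pancreatic cells such bundles carry out the exocytosis of granules and constitutive vesicles, and related bundles fuse endosomes with each other and with lysosomes. The genes described here are 9 exocytic and endosomal SNAREs (Snap23, Snap25, Snap29, Stx3, Stx4a, Stx7, Vamp2, Vamp3 and Vamp8), out of 18193 genes measured. They were chosen by symbol, with earlier results of the same comparison known, among them the rise of Snap23, so their differences are a description and the p-values beside them are not independent evidence. For each gene the brightest of its probe sets, averaged over all 6 arrays, is the main reading, and its other probe sets are given beside it: 22 probe sets in all, with 3 genes having a single one.

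The cells were mPAC L20, a line derived from mouse pancreatic ducts, whose RNA was hybridised to 6 Affymetrix arrays. Every culture received an adenovirus carrying Neurog3, the factor that starts endocrine differentiation, under a CMV promoter. Before it, 3 cultures (shControl) received an adenovirus with a scrambled hairpin and 3 (shAtoh8) one with a hairpin that targets Atoh8 (a transcription factor of the basic helix-loop-helix class), each virus at a multiplicity of infection of 40, followed by 44 to 46 h of culture. In both groups 250000 cells were seeded, and exposure lasted 4 h for the hairpin virus and 1.5 h for the Neurog3 virus. Per the labels, each replicate number is a separate biological experiment. No culture without Neurog3 or without a hairpin virus was analysed here, and all cells are of 1 line. Cultures were read in bulk, so a change in the share of cells that express a gene and a change in RNA per cell cannot be told apart.

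Median log2 signal differed little from array to array (5.49 to 5.56). The shAtoh8 replicate 2 array had the lowest hybridisation spikes (9.63, against 9.99 to 10.3 on the other 5) and the widest gap between actin probe sets at the transcript's 3' and 5' ends (0.354, elsewhere 0.107 to 0.202). Of the duct markers, Krt19, Krt8 and Sox9 had mean log2 signals of 13.4, 13.9 and 9.32, while Cftr, the chloride channel of differentiated ducts, read 3.71, below the lower quartile of the arrays (4.13 to 4.18). In these cells the 6 endothelial and 8 fibroblast markers had means of 3.53 to 5.45 and 3.58 to 6.89. None of those 14 passed the test (0; 0 at an unadjusted p under 0.05 in limma, beside 17.5% of all genes). Of 10 measured duct markers 7 were negative and 0 passed, with 3 at an unadjusted p under 0.05, all lower. In all 3 pairs 6 were lower, beside 21.5% of all genes. With the replicate number as a block, where 2.75% of all genes fell, Epcam fell (-0.73 ± 0.19 SE; limma adjusted p = 0.145, and 0.0463 with the block). Of 7 acinar markers 0 passed (1 at an unadjusted p under 0.05). The groups did not overlap for 4 (57.1%, beside 24.0% of all genes), 3 higher (42.9%, beside 12.6%) and 1 lower. Of 8 endocrine markers 0 passed (1 at an unadjusted p under 0.05), and Iapp fell with the block (-1.78 ± 0.39; 0.0965, and 0.0189 with the block). Of 7 immune markers Lyz2 rose (0.75, limma adjusted p = 0.0499, where 0.517% of all genes rose) while Ptprc, the pan-leukocyte marker, read 3.65. The part of these marker differences in any result below was not tested. Atoh8 itself was lower in shAtoh8 in all 3 replicate pairs, by -0.92, -0.39 and -0.15, but did not pass (log2 fold change -0.49 ± 0.30 SE, limma adjusted p = 0.573). With the block its SE was 0.15 and its limma adjusted p 0.157, which did not pass either.

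Snap23 was the member that passed the test, and Snap29 is its broadly expressed relative, so the promoter windows of these Snap25-family genes are shown for comparison. RefSeq windows on GRCm38.p6 run from 250 bases before to 50 bases after an annotated transcript start and were at hand for 6 of the 9 genes. The Snap23 window is chr2:120567421-120567720 on the plus strand and the Snap29 window is chr16:17405750-17406049 on the plus strand. Both are printed 5′ to 3′, and capitals mark matches on either strand to CANNTG (the E-box bound by basic helix-loop-helix factors), CCAAT and GCGCA followed, after any 1 base, by GCGC (a motif of the NRF1 type), all of them chosen after the windows were seen.
Snap23: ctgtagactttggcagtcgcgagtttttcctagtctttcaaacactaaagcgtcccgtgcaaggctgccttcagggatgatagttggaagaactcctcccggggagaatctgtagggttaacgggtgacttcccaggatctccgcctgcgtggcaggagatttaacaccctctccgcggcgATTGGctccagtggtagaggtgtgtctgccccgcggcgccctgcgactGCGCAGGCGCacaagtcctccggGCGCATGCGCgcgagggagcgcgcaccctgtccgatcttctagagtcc
Snap29: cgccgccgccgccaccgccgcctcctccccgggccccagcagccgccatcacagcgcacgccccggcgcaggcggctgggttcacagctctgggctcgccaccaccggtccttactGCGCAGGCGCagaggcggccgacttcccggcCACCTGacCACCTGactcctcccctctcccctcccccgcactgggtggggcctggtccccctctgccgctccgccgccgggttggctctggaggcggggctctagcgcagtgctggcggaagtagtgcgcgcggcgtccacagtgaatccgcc

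The Snap23 window holds 25 CpG dinucleotides and the Snap29 window 33, against a median of 7 over all 32851 windows of 300 bases. The NRF1-type motif occurs 2 times in the Snap23 window, beginning 21 bases before and 2 bases after the start, and 1 time in the Snap29 window, 134 bases before it. That motif is present in 4.6% of all windows and in 13.3% of the 8701 windows with at least 20 CpGs. CCAAT in reverse begins 69 bases before the Snap23 start, and 37.4% of all windows hold it. No CANNTG is in the Snap23 window, while the Snap29 window has CACCTG at 103 and 95 bases before the start; 72.3% of all windows and 55.7% of the CpG-rich ones hold a CANNTG. Of the other 4 genes with a window, Stx3, Stx4a and Stx7 have 1, 2 and 2 matches to CANNTG and Vamp8 has 0. The windows of Stx3 and Stx4a start from transcripts 2166 and 1165 bases from the outer end of the gene, so they describe an internal start. These matches describe letters in the windows and were not tested against the array values.

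Snap23, the Q-SNARE of most cells outside neurons, which serves exocytosis at the plasma membrane, rose with the Atoh8 hairpin on all 3 of its probe sets. On the brightest, shControl gave log2 signals of 7.84, 8.08 and 7.92 (replicates 1, 2 and 3) and shAtoh8 gave 9.13, 9.14 and 9.45. Every shAtoh8 array lay above every shControl array. The mean went from 7.95 ± 0.12 to 9.24 ± 0.18 (SD, n = 3 in each group), which is a log2 fold change of 1.29 ± 0.12 (SE; 95% interval 1.02 to 1.56), or 2.44-fold, with a limma adjusted p of 0.0121 over 45037 probe sets. Within replicate numbers the differences were 1.29, 1.06 and 1.52. Of the 18193 genes, 19 had a larger positive log2 fold change.

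The other Snap23 probe sets gave the same picture at slightly smaller size. They read the same RNA on the same arrays, so they do not replicate the rise. The middle set read 7.71, 7.79 and 7.80 in shControl and 8.76, 8.65 and 9.12 in shAtoh8, a log2 fold change of 1.08 ± 0.13 SE (limma adjusted p = 0.0273). The dimmest set read 6.46, 6.43 and 6.09 against 7.36, 7.14 and 7.51, a log2 fold change of 1.01 ± 0.14 (0.0361). On all 3 sets the groups were apart and replicate 3 showed the widest pair difference (1.52, 1.32 and 1.42) and replicate 2 the narrowest (1.06, 0.87 and 0.71). The size of the rise varied little with any single array, from 1.19 without shAtoh8 replicate 3 to 1.36 without shControl replicate 2 on the brightest set. The call depended on the arrays: the limma adjusted p was 0.0608, 0.0784 and 0.0523 without shControl replicates 1, 2 and 3, and 0.0520, 0.0296 and 0.0406 without shAtoh8 replicates 1, 2 and 3. Unadjusted p ranged from 1.95e-05 to 7.76e-05 in these fits, while the number of genes called over the whole array fell from 210 to between 0 and 117. The middle set kept its call without shAtoh8 replicates 2 and 3 (limma adjusted p = 0.0331 and 0.0406), with 0.0787 to 0.128 in the other fits. The dimmest kept it only without shAtoh8 replicate 2 (0.0439), with 0.0834 to 0.132 in the others.

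Snap25, the neuronal and endocrine counterpart of Snap23 and a part of the insulin granule machinery, read low in both groups. Its brighter probe set read 3.35, 3.35 and 3.40 in shControl and 3.46, 3.37 and 3.30 in shAtoh8, below the lower quartile of the arrays (4.13 to 4.18). The difference was 0.01 ± 0.08 SE (95% interval -0.18 to 0.20; limma adjusted p = 0.982), and the other set gave -0.09 ± 0.10. The deposited values carry no detection call, so whether any Snap25 transcript was present in these Neurog3-expressing cells cannot be told.

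Snap29, which lacks a membrane anchor and takes part in endosomal traffic and in the fusion of autophagosomes with lysosomes, did not pass. Its brightest set read 8.17, 7.98 and 7.96 in shControl and 8.49, 7.89 and 8.35 in shAtoh8, so that replicates 1 and 3 lay above all controls and replicate 2 below them. The log2 fold change was 0.21 ± 0.16 SE (95% interval -0.16 to 0.58; limma adjusted p = 0.670). The other sets repeated the low value on that array (6.91 and 6.91, against 7.66 to 7.68 and 7.49 to 7.54 in the other shAtoh8 replicates). Without shAtoh8 replicate 2, the array with the weaker spikes, the 3 sets read 0.38, 0.35 and 0.37, still short of the threshold (adjusted p = 0.192, 0.208 and 0.161). The part of that array's quality in the Snap29 values was not tested.

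**Figure D1:**
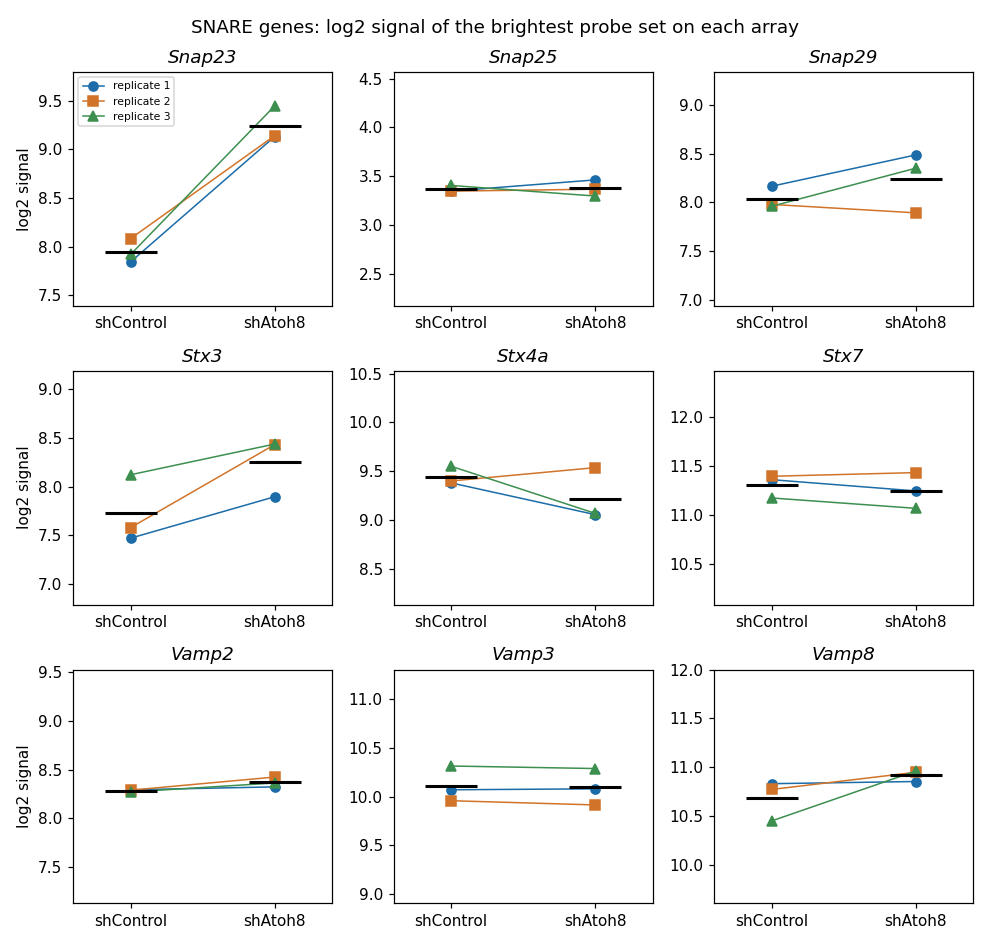
Log2 signal of the brightest probe set of each of the 9 SNARE genes on each array; colours and symbols mark replicate numbers 1 to 3, lines join arrays of the same number, black bars are group means, and every panel spans the same range of log2 units. The shAtoh8 arrays of Snap23 lie at 9.13 to 9.45, above the shControl arrays at 7.84 to 8.08, while in Snap29 and Stx4a replicate 2 lies apart from the other shAtoh8 arrays.

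Among the syntaxins, the Q-SNAREs that anchor a bundle to the target membrane, Stx3 had the largest difference and did not pass. Stx3, the apical plasma membrane syntaxin of epithelia, read 7.47, 7.58 and 8.12 in shControl and 7.90, 8.43 and 8.44 in shAtoh8. All 3 pairs were higher, by 0.43, 0.85 and 0.32, but the groups overlapped, since the third shControl array lay above the first shAtoh8 array. The log2 fold change was 0.53 ± 0.21 SE (95% interval 0.03 to 1.03), with a limma adjusted p of 0.323. With the replicate number as a block the SE was 0.12 and the limma adjusted p 0.0777, still short of the threshold. Its 3 dimmer sets were also positive, with differences of 0.27 ± 0.29, 0.18 ± 0.16 and 0.23 ± 0.13, and as the mean of its probe sets Stx3 read 0.30.

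Stx4a, the plasma membrane syntaxin that pairs with Snap23 on many exocytic routes, had a negative difference that did not pass. Its single set read 9.38, 9.40 and 9.55 in shControl and 9.05, 9.54 and 9.07 in shAtoh8, a log2 fold change of -0.22 ± 0.14 SE (95% interval -0.56 to 0.11; limma adjusted p = 0.588). Replicates 1 and 3 of shAtoh8 lay below all controls and replicate 2 among them, and without that array the value was -0.38 (adjusted p = 0.159). Stx7, a syntaxin of late endosomes, read 11.36, 11.40 and 11.17 against 11.25, 11.43 and 11.07, a difference of -0.06 ± 0.12 (95% interval -0.34 to 0.21; limma adjusted p = 0.901). The groups of Stx7 overlapped fully, and the lowest value in each was that of replicate 3.

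The VAMPs, the R-SNAREs carried by vesicles, moved by at most 0.24 on their brightest sets. None passed (0 of 3, beside 1.15% of all genes), and 0 had an unadjusted p under 0.05 in limma, beside 17.5% of all genes. With 3 genes these shares make 0 a likely count, so nothing is read from it. Vamp8, the R-SNARE of late endosomes and of zymogen granules, read 10.83, 10.77 and 10.45 in shControl and 10.85, 10.95 and 10.96 in shAtoh8. All shAtoh8 arrays lay above the controls, by only 0.02 in replicate 1 and by 0.18 and 0.51 in replicates 2 and 3. The log2 fold change was 0.24 ± 0.12 SE (95% interval -0.03 to 0.51; limma adjusted p = 0.442), and it read 0.12 without shControl replicate 3.

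Vamp2, a VAMP of regulated secretory granules, gave opposite signs on its probe sets. The brighter set read 8.29, 8.29 and 8.27 against 8.32, 8.42 and 8.36, without overlap but with a difference of only 0.09 ± 0.07 SE (limma adjusted p = 0.721), and the dimmer set gave -0.21 ± 0.14 (0.611). Vamp3, or cellubrevin, the VAMP of recycling endosomes, was read by 5 probe sets, all with intervals across 0. Its brightest set read 10.07, 9.96 and 10.31 in shControl and 10.08, 9.91 and 10.29 in shAtoh8, a difference of -0.02 ± 0.13 (95% interval -0.33 to 0.29; limma adjusted p = 0.975), and the other sets ranged from -0.12 to 0.08. On this set the Vamp3 level followed the replicate number in both groups, with replicate 3 highest and replicate 2 lowest.

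**Figure D2:**
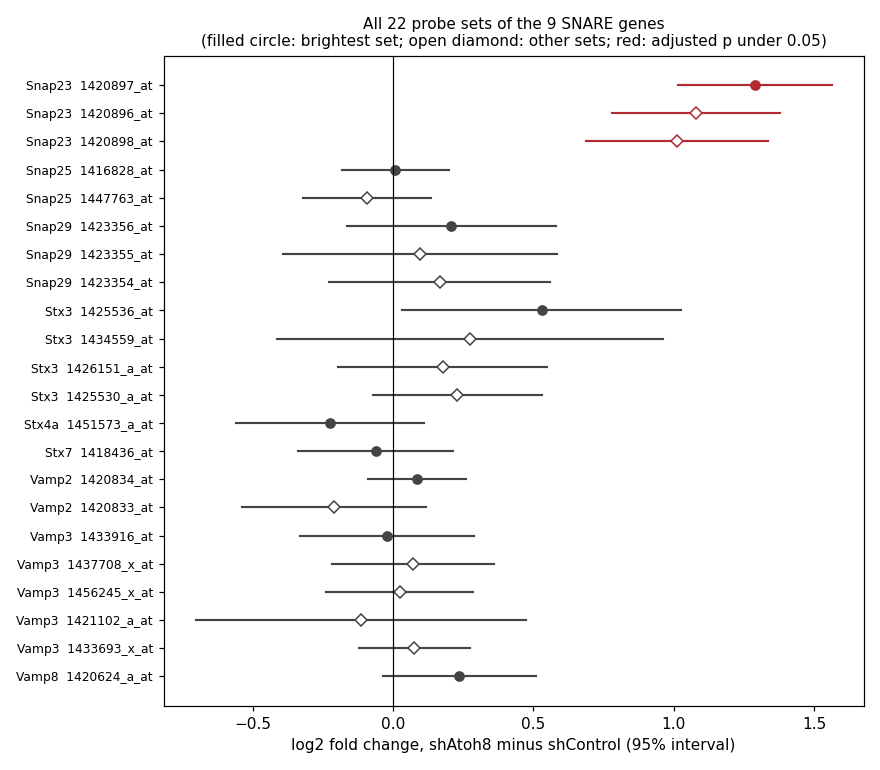
Log2 fold change, shAtoh8 minus shControl, of all 22 probe sets with limma's 95% interval; filled circles are the brightest set of a gene, open diamonds its other sets, and red marks an adjusted p under 0.05. The 3 sets of Snap23, at 1.01 to 1.29, are the red ones, and the interval of every other set but the brightest of Stx3 includes 0.

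In all, 1 of the 9 SNARE genes passed the threshold, beside 1.15% of all genes (210 of 18193), and 3 of their 22 probe sets did, all of Snap23, beside 0.802% of all probe sets. With the replicate number as a block 849 genes passed (4.67%), and Snap23 was again the single member called. The rise of Snap23 was known when the members were chosen, so nothing is read from this count. Without overlap between groups were 3 of 9 (Snap23, Vamp2 and Vamp8), all higher, beside 24.0% of all genes in either direction and 12.6% higher. In all 3 pairs 4 of 9 were higher (these and Stx3), beside 24.0% of all genes, and 0 of 9 lower, beside 21.5%. The median log2 fold change of the 9 was 0.09, beside 0.01 over all genes. The 8 members other than Snap23 ranged from -0.22 to 0.53, and their highest upper 95% bound was 1.03 for Stx3 and 0.58 for the remaining ones. The lower bound of Snap23 was 1.02 on its brightest set and 0.78 and 0.69 on its other sets, all below the Stx3 bound. Because the rise of Snap23 was known at the choice of members, these bounds are a description. The difference between Snap23 and Stx3 was not tested.

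**Figure D3:**
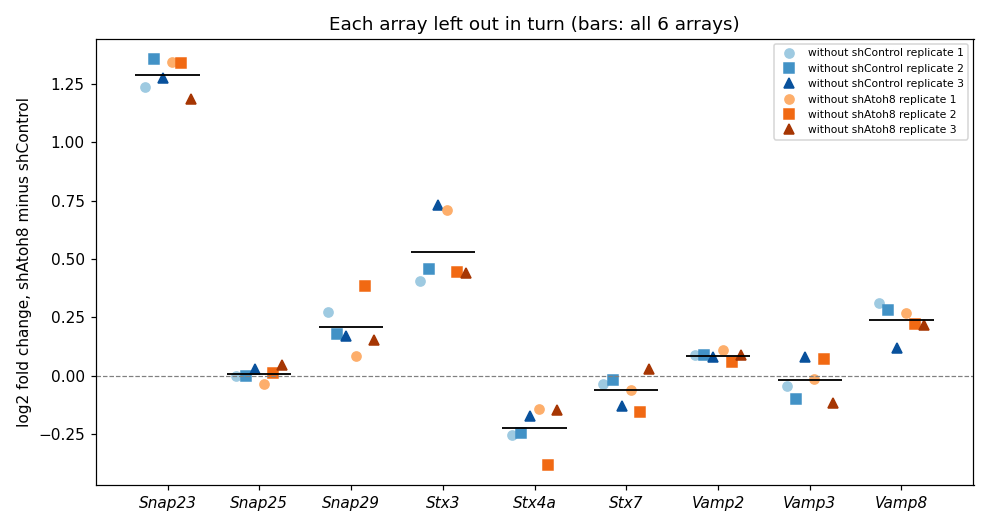
Log2 fold change of each SNARE gene with each array left out in turn (blue, a shControl array; orange, a shAtoh8 array); black bars are the values from all 6 arrays. Snap23 stays between 1.19 and 1.36 and Stx3 between 0.40 and 0.73, while Snap25, Stx7 and Vamp3 cross 0.

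The genes whose values over the 6 arrays, each centred on its own mean, lay closest to those of Snap23 were Neat1, Malat1, Bcl7c, Asah1 and Rcan2, with root mean square differences of 0.105, 0.113, 0.144, 0.153 and 0.155 log2 units. Neat1 and Malat1 are long noncoding RNAs of the nucleus and Asah1 is the lysosomal acid ceramidase. Neat1 read 10.88, 10.95 and 11.05 in shControl and 11.95, 12.10 and 12.33 in shAtoh8, with replicate 3 highest among the shAtoh8 arrays, as in Snap23. Since all these genes share the arrays and the group difference, the closeness is a description. The protein-coding genes next to Snap23 on chromosome 2, looked at after the values were seen, did not pass: Capn3 and Zfp106 on one side read 0.14 ± 0.14 SE and -0.09 ± 0.08, and Lrrc57 and Haus2 on the other 0.35 ± 0.16 and 0.26 ± 0.13 (limma adjusted p from 0.388 to 0.750).

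Of the other SNAREs, 28 of 29 listed were measured and none passed (0; 6 at an unadjusted p under 0.05 in limma, 4 higher and 2 lower). Those 6 are 21.4% of the list, close to the 17.5% of all genes at that level. Their median was 0.04 and 18 were positive (64.3%, beside 53.1% of all genes). The smallest p-values belonged to Stx16, a syntaxin of the trans-Golgi network, with -0.49 ± 0.10 SE (adjusted p = 0.0862), and Stx11, a syntaxin of cytotoxic granule release, with -0.35 ± 0.09 (0.132). A dimmer set of Stx11 read only -0.10 ± 0.08 (0.693). On the main readings the groups of Stx16 and Stx11 were apart: Stx16 read 9.07, 9.03 and 9.05 in shControl and 8.63, 8.69 and 8.35 in shAtoh8.

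SNARE chaperones and disassembly factors help syntaxins assemble into bundles or pull spent bundles apart. Their list also held the syntaxin-binding proteins Stxbp4, Stxbp5, Stxbp5l and Stxbp6, which do neither. The list gave 0 calls among 15 measured (5, or 33.3%, at an unadjusted p under 0.05 in limma, beside 17.5% of all genes) and a median of 0.09. With the replicate block 2 rose and 2 fell, beside 1.92% and 2.75% of all genes. Vps45, the Sec1/Munc18 protein of early endosomes, read 6.73, 6.81 and 6.59 against 7.38, 7.56 and 7.21 (0.68 ± 0.11 SE; limma adjusted p = 0.0529, and 0.0240 with the block). Vps33a, the Sec1/Munc18 subunit of HOPS, went the other way, from 7.33, 7.10 and 7.09 to 6.53, 6.64 and 6.26 (-0.70 ± 0.12; 0.0585, and 0.0319 with the block), and its dimmer set passed without the block (-0.60 ± 0.08; 0.0378). Of the list's 41 probe sets 1 other passed, also not the brightest of its gene: a dim set of Stxbp5l, named after its value was seen, with 0.66 ± 0.10 (0.0437), where the brightest set read 0.07 ± 0.17 (0.924). The other 2 block calls, named after their values were seen, were Stxbp4 (0.55 ± 0.18 SE; limma adjusted p = 0.215, and 0.0482 with the block) and Stxbp6 (-0.57 ± 0.21; 0.296, and 0.0425 with the block). Stxbp3, the Munc18 partner of Stx4a, also named afterwards, read 0.03 ± 0.07 (adjusted p = 0.927), and the disassembly ATPase Nsf 0.11 ± 0.08 (0.678).

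Among 34 measured calcium sensors, complexins and priming factors, 1 rose and 0 fell (limma), beside 0.517% and 0.638% of all genes, and the median was 0.01. At an unadjusted p under 0.05 in limma were 3 (8.82%, beside 17.5% of all genes). Many of the list read dim, with mean log2 signals from 3.00 and a median of 5.34, and the part of signal level in its counts was not tested. The gene that rose was Sytl2, a Rab27 effector that docks granules at the plasma membrane. It read 10.44, 10.38 and 10.24 in shControl and 11.01, 11.00 and 11.13 in shAtoh8, a log2 fold change of 0.69 ± 0.09 SE (adjusted p = 0.0316), and lost its call with any 1 array left out (0.0557 to 0.132) at values of 0.64 to 0.74.

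Tethering complexes hold a vesicle at its target before SNAREs engage: the exocyst at the plasma membrane, CORVET at early and HOPS at late endosomes. None of the 16 subunits passed (0; 10, or 62.5%, at an unadjusted p under 0.05 in limma, 8 higher and 2 lower, beside 17.5% of all genes), and 1 rose with the replicate block. The block call was Vps41, a HOPS subunit, which read 10.06, 10.00 and 9.77 against 10.63, 10.56 and 10.48 (0.61 ± 0.10 SE; limma adjusted p = 0.0520, and 0.0292 with the block). Exoc8 followed, with 7.87 ± 0.15 and 8.32 ± 0.04 (SD, n = 3 per group), a difference of 0.45 ± 0.10 SE (adjusted p = 0.0969). Its dimmer set read only 0.11 ± 0.08 (0.656). The list median was 0.23, beside 0.01 over all genes, and the groups were apart for 14 of the 16 (87.5%, beside 24.0% of all genes), 11 higher (68.8%, beside 12.6%) and 3 lower. All 16 read bright, at mean log2 signals of 8.10 to 10.4, where the array medians were 5.49 to 5.56. The shares over all genes include dim genes, so they are not matched for signal. This list was also chosen with earlier results of these data known, and the part of signal level in its counts was not tested. Divided after the values were seen, all 7 HOPS and CORVET subunits of this list were positive on their brightest sets (median 0.28), beside 53.1% of all genes. Vps33a, a further subunit of these endosomal complexes described with the chaperones, was negative, so that count depends on how the lists were drawn. Of 9 exocyst subunits 5 were positive and 4 negative. Vps8 read 0.08 ± 0.13 SE on its brightest set but -0.07 ± 0.10 on its other. A dim set each of Vps11 (-0.09) and Tgfbrap1 (-0.06) was also negative, and the remaining sets of the 7 were positive. The labels say nothing of vesicle traffic, and the levels of these proteins were not measured here.

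**Figure D4:**
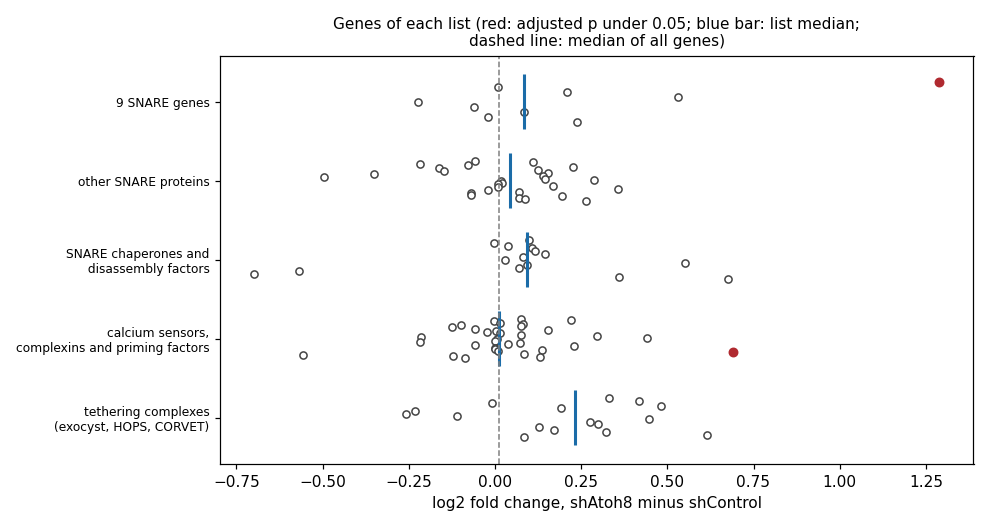
Log2 fold change, shAtoh8 minus shControl, of each measured gene in the SNARE set and in 4 related lists; red points have a limma adjusted p under 0.05, blue bars are list medians and the dashed line is the median of all genes (0.01). Snap23 and Sytl2 are the red points, and the tethering list has the median farthest from the dashed line, at 0.23.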

How the data were processed

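Each deposited value is the log2 signal of a probe set on 1 array; per the submitters' processing notes the authors used RMA and affy, and versions were not given in the sources used here. RMA puts arrays on a common distribution, so a shift of most genes would have been removed. Of 45101 probe sets, 64 control sets were left out and 45037 tested without a filter. The platform annotation gave 34945 of them 1 symbol, 932 several and 9160 none; only the first named a gene. The comparison of shAtoh8 with shControl used limma 3.58.1 in R 4.3.3 (lmFit, eBayes; 4 residual and 3.30 prior degrees of freedom), two-sided, with Benjamini-Hochberg adjustment over all probe sets at 0.05. SE is limma's moderated standard error. The fit was also run on simulated arrays whose noise was independent from array to array. They lacked the likeness of same-numbered arrays described next, so that run says nothing on pairing.

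Same-numbered arrays deviated together from their group means (correlations 0.407, 0.187 and 0.433 over all probe sets). Different numbers gave -0.351 to 0.0292, but centring each group on its own mean forces these down when the same-number values are positive, so they add no separate evidence. On the same-number values the numbers were taken as pairs in a blocked fit, while the main fit had no block. Blocked values appear beside a result whose call the block changed, and for Snap23, Stx3 and Atoh8. The 6 arrays limit the precision. Members and lists were chosen with earlier results of these data known. Named were all members, Atoh8, in each list the genes past the threshold (at most 4) or the 2 with the smallest p, and the 5 genes closest to Snap23, except where the text says otherwise. Alternatives covered the block, normalization, centring, a brightness filter, variance model, array weights, probe-set choice and each array left out.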

Additional observations from a re-analysis of the deposited data

How the results depend on the processing

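Snap23 passed in all 8 alternatives run on the 6 arrays, with log2 fold changes of 1.13 to 1.32. With the replicate block its adjusted p was 0.0160, and the block changed no member's call. With the block and both arrays of replicate 1, 2 or 3 left out, Snap23 read 1.29, 1.41 and 1.17 (adjusted p = 0.105, 0.00624 and 0.103), members called were 0, 1 and 0, and genes called over the array 0, 966 and 0 (3004, 3935 and 2565 at an unadjusted p under 0.05). With 1 array left out, members called ranged from 0 to 1, genes called from 0 to 117 (the lowest without shControl replicate 2), Snap23 from 1.19 to 1.36, the member median from 0.07 to 0.09, and calcium sensors, complexins and priming factors called from 0 to 1; that 1 was Unc13a without shAtoh8 replicate 2 (-0.80, adjusted p = 0.0458), not Sytl2. The count of genes called, 210, was 849 with the replicate block, 324 with brighter probe sets alone, 339 with array weights and 459 with probe-set means per gene. Genes called in the list of SNARE chaperones and disassembly factors, 0, were 4 with the block (Stxbp4 and Stxbp6 among them) and 2 with brighter sets, array weights or probe-set means. Tethering subunits called, 0, were 1 under each of these 4 and with a trended, robust variance model. Other SNAREs called, 0, were 1 (Stx16) with probe-set means. The member median, 0.09, was 0.15 with brighter sets, which leave out Snap25, and 0.0071 with probe-set means. Members near 0 changed sign: Snap25 to -0.012 with median centring and -0.042 with probe-set means, Vamp2 to -0.062 with probe-set means, and Vamp3 to 0.031 with array weights and 0.0071 with probe-set means. With 1 array left out Snap25 ranged from -0.035 to 0.048, Stx7 from -0.15 to 0.029 and Vamp3 from -0.12 to 0.080, and Snap25 read -0.044 with the block and replicate 1 left out. The cause of these changes was not tested. Dim sets such as those of Snap25 carry little signal over background and limit what their difference can show.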
